A study of Homo sapiens with 8 samples.

Results

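The subject here is the set of 9 genes that set the phosphorylation of the alpha subunit of translation initiation factor eIF2: the 4 eIF2alpha kinases EIF2AK1, EIF2AK2, EIF2AK3 and EIF2AK4, the 2 phosphatase targeting subunits PPP1R15A and PPP1R15B, and the regulators GCN1, IMPACT and DNAJC3. They were taken by gene symbol from a table of raw counts, where 9 of 58787 gene rows matched, 1 row per gene, and all 9 passed the filter on low counts. The libraries come from IMR32, an established human neuroblastoma cell line with amplified MYCN, labelled with wild-type genotype. Cells had adhered for 48 h before the medium was changed and either the IC50 dose of CR31B, a rocaglate that blocks the RNA helicase eIF4A, or the vehicle, 0.1% DMSO, was added, and RNA was taken after 6 h. Each group holds 4 libraries described as biological replicates, of which replicate 1 was sequenced paired-end and replicates 2 to 4 single-end.

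eIF2 carries the initiator tRNA to the ribosome, and phosphorylation of its alpha subunit blocks the exchange factor eIF2B, which lowers general initiation while the mRNA of the transcription factor ATF4 is translated better. Each of the kinases answers another signal: EIF2AK1 (HRI) heme shortage and mitochondrial stress, EIF2AK2 (PKR) double-stranded RNA, EIF2AK3 (PERK) unfolded protein in the endoplasmic reticulum, and EIF2AK4 (GCN2) uncharged tRNA and stalled ribosomes. PPP1R15A (GADD34) and PPP1R15B (CReP) bring protein phosphatase 1 to eIF2alpha and remove the phosphate; the first is known as the stress-induced subunit and the second as the constitutive one. These genes are regulated largely at the level of protein activity, and the values below are mRNA levels.

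Total counts ranged from 43687828 to 64715535 per library. All 12 adrenergic neuroblastoma markers checked were above 1 CPM in every library, whereas all 10 brain glia markers stayed under 1 CPM in each, with GFAP, OLIG1, OLIG2 and AIF1 at 0, although the labels give brain as the tissue. The 2 libraries of replicate 1 run against their labels relative to the other 6: of 6882 genes called in replicates 2 to 4 and compared, 98.9% differed in the opposite direction in pair 1. Of the adrenergic markers, 6 were called higher and 4 lower with CR31B in replicates 2 to 4, with GATA3 at 1.78, HAND2 at 0.97, DBH at -0.98 and STMN2 at -0.81 on the log2 scale. Their summed CPM followed the split of the libraries, with 4109 to 4474 in CR31B replicates 2 to 4, 3124 to 3191 in DMSO replicates 2 to 4, 3131 in the library labelled CR31B replicate 1 and 4207 in the library labelled DMSO replicate 1. HAND2 and GATA3 weighed most in that sum's rise, and 4 markers were called lower. In replicates 2 to 4 HAND2 had means of 678 CPM in DMSO and 1328 CPM in CR31B, and GATA3 259 and 886 CPM. Of 10 mesenchymal markers 6 were above 1 CPM in every library, with summed levels of 509 to 649 CPM in CR31B replicates 2 to 4 and 420 to 507 CPM in DMSO replicates 2 to 4, 383 CPM in the library labelled CR31B replicate 1 and 493 CPM in the library labelled DMSO replicate 1, and PRRX1 was at 0. VIM alone had means of 481 CPM in CR31B and 377 CPM in DMSO replicates 2 to 4. Of 9 tested mesenchymal markers 2 (22.2%) were called higher and 0 lower, beside 23.8% and 17.6% over all tested genes. The part of these markers in the results was not tested. Pair 1 is therefore given apart, and the fitted values of the 9 genes are given for replicates 2 to 4 and for all 8 libraries. In all 8 libraries as labelled, 0% of 16518 tested genes passed 0.05 in the edgeR quasi-likelihood test with Benjamini-Hochberg (BH) adjustment over all genes, 205 had an unadjusted p under 0.05, and none of the 9 genes was called. Leaving out the library labelled CR31B replicate 1 gave 6920 calls and leaving out the library labelled DMSO replicate 1 gave 6906. In both fits the covariate for paired-end or single-end sequencing absorbed the remaining paired-end library. They therefore in effect repeat the fit of replicates 2 to 4 alone, which gave 6901 calls. In replicates 2 to 4 alone, 41.3% of 16696 tested genes passed, 23.8% higher and 17.6% lower with CR31B, and 3 of the 9 genes did: PPP1R15B was higher, PPP1R15A and EIF2AK1 were lower. A call of at least 2-fold was made for 2.68% of the tested genes and for none of the 9. The median log2 fold change of the 9 was -0.11, against -0.007 over all tested genes. With replicate number entered as a block, 6 of the 9 genes passed in replicates 2 to 4, as did 51.1% of all tested genes.

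**Figure D1:**
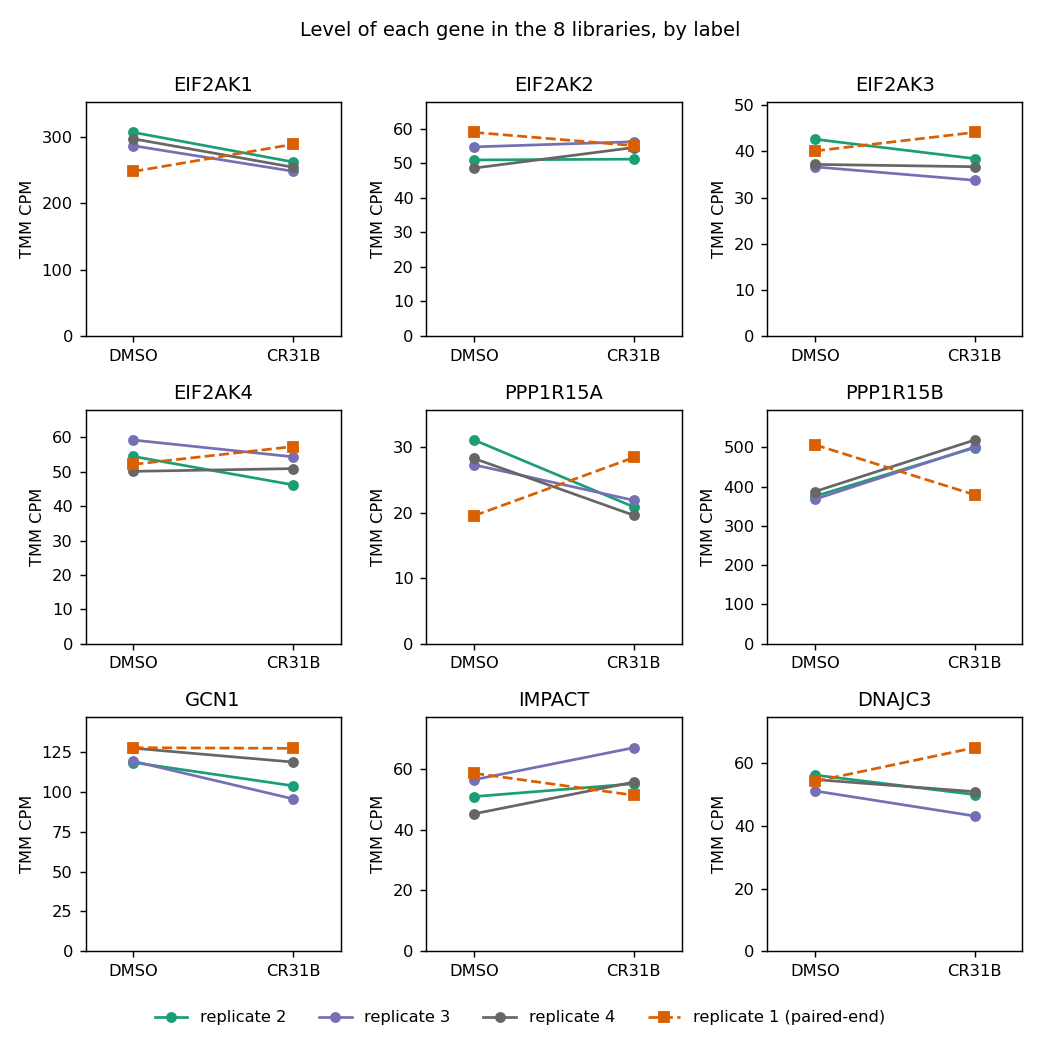
Normalised level (TMM CPM, vertical axes from 0) of each of the 9 genes in the 8 libraries, by label; lines join libraries of the same replicate number, and replicate 1 (paired-end) is dashed with squares. PPP1R15A and EIF2AK1 lie lower and PPP1R15B higher in the CR31B libraries of replicates 2 to 4, and for these 3 genes the line of replicate 1 slopes the other way.

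The phosphatase subunits moved in opposite directions. In replicates 2 to 4 PPP1R15A mRNA was 1.39-fold lower and PPP1R15B mRNA 1.34-fold higher with CR31B. PPP1R15A (ENSG00000087074) maps to chromosome 19, 48872392 to 48876057, plus strand, and PPP1R15B (ENSG00000158615) to chromosome 1, 204403387 to 204411791, minus strand (GRCh38). No exon base of either is shared with another annotated gene. The 250 bases before the RefSeq start of each are printed (GRCh38.p14, chr19:48872171-48872420 on the plus strand and chr1:204411818-204412067 on the minus strand). They are shown because these genes hold the only matches to ATF-type motifs found among the members searched, which leave out EIF2AK1. Capitals mark the match.

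PPP1R15A: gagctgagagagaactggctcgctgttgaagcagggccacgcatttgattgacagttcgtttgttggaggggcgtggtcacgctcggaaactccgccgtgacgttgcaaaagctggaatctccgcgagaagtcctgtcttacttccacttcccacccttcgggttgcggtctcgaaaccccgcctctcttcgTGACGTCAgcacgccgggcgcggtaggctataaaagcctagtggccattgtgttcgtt
PPP1R15B: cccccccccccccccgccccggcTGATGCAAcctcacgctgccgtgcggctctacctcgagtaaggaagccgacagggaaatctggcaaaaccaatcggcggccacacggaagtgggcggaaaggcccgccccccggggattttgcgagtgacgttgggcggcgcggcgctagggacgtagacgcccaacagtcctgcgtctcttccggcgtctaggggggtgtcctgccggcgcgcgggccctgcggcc

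The search covered 5 motifs on both strands, from 250 bases before to 50 bases after the start, in the 8 members with a RefSeq promoter entry and in 35116 promoters in all. EIF2AK1 had no such entry and was not searched. PPP1R15A holds the cyclic AMP response element TGACGTCA, whose first base lies 58 bases before the start; 1.85% of all promoters hold it. PPP1R15B holds TGATGCAA, a match to TGATGNAA, the core of elements bound by C/EBP and ATF factors, with its first base 227 bases before the start; 3.62% of all promoters hold that motif. EIF2AK2 holds GAAAACGAAA across its start, a match to the core of the interferon-stimulated response element, which 3.57% of all promoters hold. No match was found to the endoplasmic reticulum stress element (0.0769% of all promoters) or to the unfolded protein response element TGACGTG (1.97%), whose first letters are those of the cyclic AMP response element. A match describes letters in this window and not a bound site.

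PPP1R15A had 31.1, 27.4 and 28.3 CPM in DMSO replicates 2, 3 and 4 and 20.9, 21.9 and 19.6 CPM in the CR31B libraries of the same numbers. The 2 groups did not overlap in these 6 libraries. The library labelled DMSO replicate 1 had 19.57 CPM, just under the range of CR31B replicates 2 to 4, and the library labelled CR31B replicate 1 had 28.5 CPM, inside the range of DMSO replicates 2 to 4. Replicates 2 to 4 gave a log2 fold change of -0.47 ± 0.073 (SE, 95% interval -0.63 to -0.31), edgeR adjusted p = 0.000503. In 8 libraries as labelled it was -0.23 ± 0.17 (SE), edgeR adjusted p = 0.707. That spread includes pair 1, which differed by 0.54, where pairs 2, 3 and 4 differed by -0.57, -0.32 and -0.53.

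PPP1R15B was the more abundant subunit, with 375, 368 and 387 CPM in DMSO replicates 2, 3 and 4 and 499, 500.4 and 518 CPM in CR31B replicates 2, 3 and 4. Every CR31B library of these numbers lay above every DMSO library. Replicate 1 had 506 CPM in the library labelled DMSO and 379 CPM in that labelled CR31B. In replicates 2 to 4 the log2 fold change was 0.43 ± 0.048 (SE, 95% interval 0.32 to 0.53), edgeR adjusted p = 6.885e-05, and in 8 libraries it was 0.22 ± 0.14, adjusted p = 0.707.

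Set against each other per kilobase of merged exons, the ratio of PPP1R15A to PPP1R15B was 0.14, 0.126 and 0.124 in DMSO replicates 2 to 4 and 0.0709, 0.074 and 0.064 in CR31B replicates 2 to 4. It was 0.0653 in the library labelled DMSO replicate 1 and 0.127 in the library labelled CR31B replicate 1. On the log2 scale PPP1R15B gained 0.90 on PPP1R15A in replicates 2 to 4 (4.604 ± 0.11 with CR31B against 3.70 ± 0.099 with DMSO, SD, n = 3 each). An exact two-sided permutation test gave p = 0.1, the smallest that 3 against 3 libraries allow. Each gene alone separates these groups, in opposite directions, so that outcome was fixed in advance and adds no support. In pair 1 the log2 difference of PPP1R15B over PPP1R15A was -0.96.

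**Figure D2:**
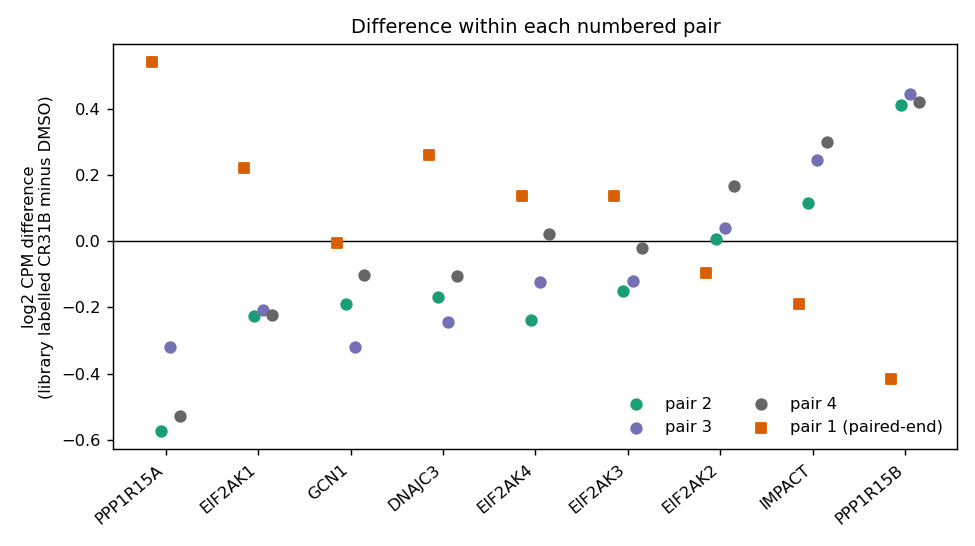
Difference in log2 CPM (prior count 1) between the library labelled CR31B and the library labelled DMSO of the same number, for each gene, ordered by the fitted change in replicates 2 to 4; squares are pair 1. PPP1R15A, EIF2AK1 and PPP1R15B have the same sign in pairs 2 to 4 and the opposite sign in pair 1, and GCN1 is near 0 in pair 1 (-0.0052).

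Of the 4 kinases, EIF2AK1 alone was called in replicates 2 to 4. EIF2AK1 (ENSG00000086232, chromosome 7, 6022244 to 6059230, minus strand) had 306, 286 and 297 CPM in DMSO replicates 2, 3 and 4 and 262, 248 and 254 CPM in CR31B replicates 2, 3 and 4. All CR31B libraries of these numbers lay under all DMSO libraries, and the 3 pair differences were close to each other at -0.23, -0.21 and -0.22. The order was the other way in replicate 1, with 248 CPM in the library labelled DMSO and 288 CPM in that labelled CR31B. Replicates 2 to 4 gave a log2 fold change of -0.22 ± 0.05 (SE, 95% interval -0.33 to -0.11), edgeR adjusted p = 0.00545, a fall of 1.16-fold, and in 8 libraries it was -0.11 ± 0.093, adjusted p = 0.707. AIMP2 on the opposite strand shares 9.59% of the exon bases of EIF2AK1; the name of the deposited table carries the word reverse, and no other source used here states the strand setting.

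The other kinases did not pass in replicates 2 to 4, and the intervals give the range of changes these libraries leave possible. EIF2AK2 (ENSG00000055332, chromosome 2, 37099210 to 37157065, minus strand), the double-stranded RNA sensor, had 51, 54.8 and 48.7 CPM in DMSO replicates 2, 3 and 4 and 51.3, 56.3 and 54.6 CPM in CR31B replicates 2, 3 and 4. The groups overlapped. Its log2 fold change was 0.07 ± 0.061 (SE, 95% interval -0.07 to 0.21), edgeR adjusted p = 0.387, and its sign depended on scaling: upper quartile scaling gave -0.02, total counts gave -0.00723, and the value was -0.21, adjusted p = 0.0202 with offsets for GC content and transcript length. Pair 1 had 59 CPM in the library labelled DMSO and 55.2 CPM in that labelled CR31B, and the 8-library value was 0.03 ± 0.076 (edgeR adjusted p = 0.882).

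EIF2AK3 (ENSG00000172071, chromosome 2, 88556741 to 88627576, minus strand), the kinase of the endoplasmic reticulum, had 42.6, 36.6 and 37.2 CPM in DMSO replicates 2, 3 and 4 and 38.4, 33.7 and 36.7 CPM in CR31B replicates 2, 3 and 4. The groups overlapped, and within each of these pairs the CR31B library was the lower one, by between -0.15 and -0.02 on the log2 scale. The log2 fold change was -0.10 ± 0.075 (SE, 95% interval -0.26 to 0.07), edgeR adjusted p = 0.337; with upper quartile scaling it was -0.19, adjusted p = 0.0492, and with GC and length offsets and the replicate block -0.19, adjusted p = 0.00507. Genes on the other strand share 15.1% of its exon bases, and 4.05% of those of EIF2AK2. Pair 1 had 40.1 CPM under the label DMSO and 44.1 CPM under the label CR31B, and the 8-library value was -0.04 ± 0.089 (edgeR adjusted p = 0.863).

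EIF2AK4 (ENSG00000128829, chromosome 15, 39934146 to 40035591, plus strand), the sensor of uncharged tRNA, had 54.5, 59.2 and 50.1 CPM in DMSO replicates 2, 3 and 4 and 46.2, 54.4 and 50.9 CPM in CR31B replicates 2, 3 and 4. The groups overlapped, and pair 4 differed by 0.02 where pairs 2 and 3 differed by -0.24 and -0.12. Its log2 fold change was -0.11 ± 0.077 (SE, 95% interval -0.28 to 0.06), edgeR adjusted p = 0.273, or -0.21, adjusted p = 0.0321 with GC and length offsets. In replicate 1 the values were 52.2 CPM in the library labelled DMSO and 57.3 CPM in the library labelled CR31B, and all 8 libraries gave -0.05 ± 0.092 (edgeR adjusted p = 0.824).

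**Figure D3:**
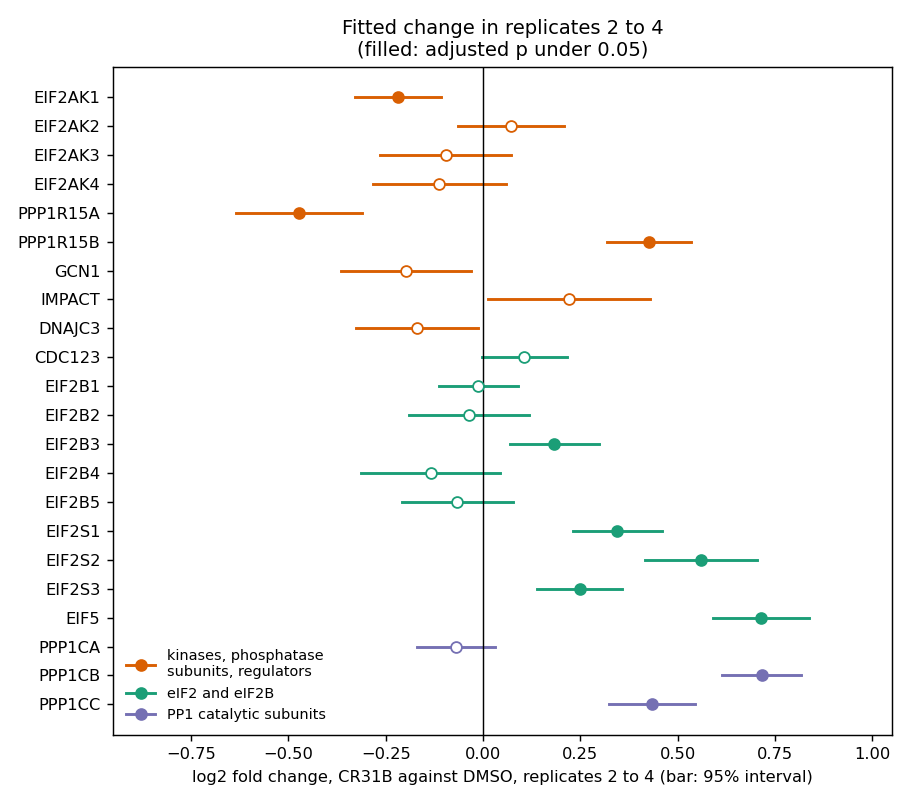
Fitted log2 fold change of CR31B against DMSO in replicates 2 to 4 with its 95% interval (edgeR quasi-likelihood), for the 9 genes, eIF2 and eIF2B subunits with EIF5 and CDC123, and the protein phosphatase 1 catalytic subunits; filled points have an adjusted p under 0.05. PPP1R15A stands at -0.47 and PPP1R15B at 0.43, and the 3 eIF2 subunits EIF2S1, EIF2S2 and EIF2S3 are all above 0.

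The calls of the 3 regulators depended on the model: none passed in replicates 2 to 4 as first fitted, and each passed with replicate number as a block, though IMPACT did not when offsets were added to the block. GCN1 (ENSG00000089154, chromosome 12, 120127203 to 120194710, minus strand), a ribosome-bound partner that EIF2AK4 needs for its activation, had 118, 119 and 128 CPM in DMSO replicates 2, 3 and 4 and 104, 95.7 and 119 CPM in CR31B replicates 2, 3 and 4. The groups overlapped only through CR31B replicate 4, which lay just above DMSO replicate 2, at 118.8 against 118.5 CPM. The log2 fold change of GCN1 was -0.20 ± 0.075 (SE), edgeR adjusted p = 0.0563, and -0.20, adjusted p = 0.0047 once replicate number entered as a block. A call was also made without CR31B replicate 4, at -0.28, edgeR adjusted p = 0.00886, and GCN1 passed in 10 of its 16 alternatives, among them DESeq2 and each of the other scalings. All 8 libraries gave -0.15 ± 0.088 (edgeR adjusted p = 0.707). In replicate 1 the libraries labelled DMSO and CR31B had 127.8 and 127.4 CPM, so that pair showed no difference of the size seen in the others.

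IMPACT (ENSG00000154059, chromosome 18, 24426616 to 24453535, plus strand) competes with EIF2AK4 for GCN1 and is known as an inhibitor of that kinase. It had 50.9, 56.4 and 45.2 CPM in DMSO replicates 2, 3 and 4 and 55.1, 66.9 and 55.6 CPM in CR31B replicates 2, 3 and 4. The groups overlapped, while in each of these pairs the CR31B library was higher. The log2 fold change was 0.22 ± 0.094 (SE), edgeR adjusted p = 0.0836, and 0.22, adjusted p = 0.00329 with the replicate block. It was also called without DMSO replicate 3 (0.30, edgeR adjusted p = 0.0373). It was 0.073 with GC and length offsets and the block, with no call. Pair 1 had the opposite order, 58.5 CPM under the label DMSO and 51.3 CPM under the label CR31B, and the 8-library value was 0.12 ± 0.12 (edgeR adjusted p = 0.715). GCN1 and IMPACT thus differed in opposite directions in pairs 2 to 4, and the ratio of GCN1 to IMPACT per kilobase was 1.19, 1.08 and 1.44 in DMSO replicates 2 to 4 and 0.961, 0.728 and 1.09 in CR31B replicates 2 to 4, ranges that overlap.

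DNAJC3 (ENSG00000102580, chromosome 13, 95677139 to 95794989, plus strand) encodes a co-chaperone of the endoplasmic reticulum (p58IPK) described as an inhibitor of EIF2AK2 and EIF2AK3. It had 56.1, 51.1 and 54.7 CPM in DMSO replicates 2, 3 and 4 and 49.9, 43.1 and 50.9 CPM in CR31B replicates 2, 3 and 4, with all CR31B libraries just under all DMSO libraries. The log2 fold change was -0.17 ± 0.071 (SE), edgeR adjusted p = 0.0808, -0.17, adjusted p = 0.00989 with the replicate block, and -0.36, adjusted p = 0.00372 with GC and length offsets. The highest of the 8 values, 64.9 CPM, was in the library labelled CR31B replicate 1, whose DMSO partner had 54.2 CPM. DNAJC3 also passed with upper quartile scaling (-0.27) and total counts (-0.25), and all 8 libraries gave -0.06 ± 0.1 (edgeR adjusted p = 0.804).

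Levels were compared between genes per kilobase of merged exons. Over the 8 libraries PPP1R15B was highest at 84.5 ± 13.2 CPM per kilobase (SD, n = 8), followed by EIF2AK1 at 49.3 ± 4.22, and the ranges of these 2 genes did not overlap each other or those below. GCN1 (12.2 ± 1.22), IMPACT (11.2 ± 1.29), DNAJC3 (9.5 ± 1.11) and PPP1R15A (7.97 ± 1.5) came next, and the range of each overlapped that of its neighbour. EIF2AK3 (7.12 ± 0.631) lay above EIF2AK2 (5.01 ± 0.31) in all 8 libraries with no overlap, and its range overlapped that of PPP1R15A. EIF2AK2 lay above EIF2AK4 (4.44 ± 0.348) in all 8 libraries, with overlapping ranges. EIF2AK1 alone made up 72.1% to 77.5% of the summed level of the 4 kinases per kilobase. These levels depend on the length used: with the longest annotated transcript, chosen after seeing the data, EIF2AK4 rose to 9.66 ± 0.756, above EIF2AK3 (8.33) and EIF2AK2 (5.36), IMPACT (14.5) passed GCN1 (13.5), and PPP1R15B (84.5) and EIF2AK1 (61.2) stayed highest.

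**Figure D4:**
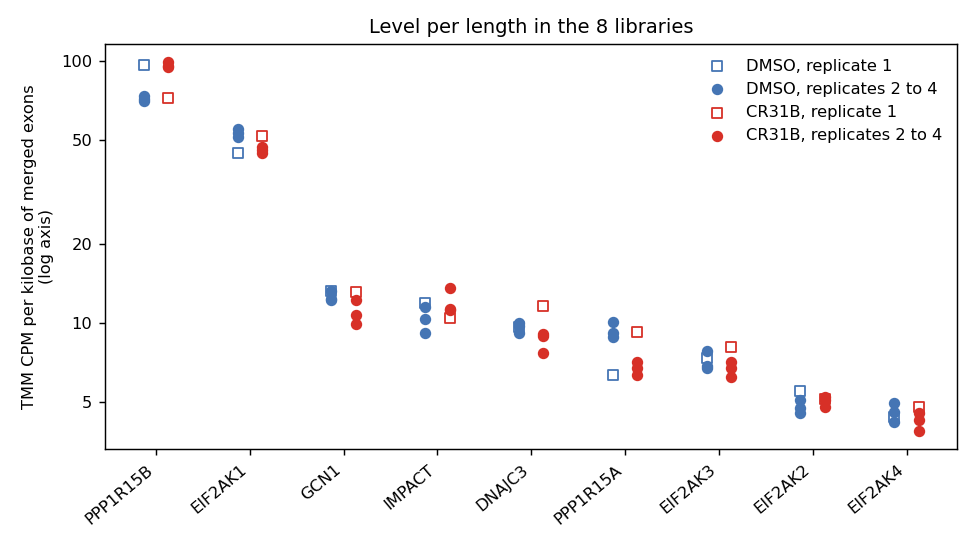
TMM CPM per kilobase of merged exons (log axis) in each library, genes ordered by their mean over 8 libraries; open squares are replicate 1. PPP1R15B (70.3 to 99.2) and EIF2AK1 (44.6 to 55.2) stand above the other 7 genes, which lie between 3.87 and 13.6.

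The difference between pair 1 and pairs 2 to 4 was itself tested as an interaction of treatment with sequencing layout. It passed in 42.5% of 16518 genes and in 4 of the 9: PPP1R15A (1.01 ± 0.15 on the log2 scale, edgeR adjusted p = 0.000346), PPP1R15B (-0.84 ± 0.097, adjusted p = 7.31e-05), EIF2AK1 (0.44 ± 0.099, adjusted p = 0.0051) and DNAJC3 (0.43 ± 0.14, adjusted p = 0.0315). Without DMSO replicate 4, DNAJC3 had an edgeR adjusted p = 0.0542 in this test. With 1 paired-end library per group, the single-end libraries alone supply the spread, and layout cannot be told apart from replicate 1. For GCN1 the interaction was 0.19 ± 0.15, edgeR adjusted p = 0.324.

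The factors acted on by the kinases and phosphatases were described from 6 lists of pathway genes, which exclude the 9. None of their genes was called in all 8 libraries, and every list gene named below as called in replicates 2 to 4 differed in the opposite direction in pair 1. In bulk RNA, a smaller share of cells with a transcript and less of it per cell cannot be told apart. Of 10 genes for eIF2, eIF2B and their partners, 5 (50%) were called higher with CR31B in replicates 2 to 4, 0 lower and 5 not called, against 23.8% higher and 17.6% lower over all tested genes, with a median log2 fold change of 0.14. EIF2S1, the alpha subunit that carries the regulated serine, rose by 0.34 ± 0.051 on the log2 scale (178 ± 6.49 CPM with DMSO and 226 ± 8.16 CPM with CR31B, SD, n = 3 each), and differed by -0.47 in pair 1. EIF2S2 and EIF2S3, the beta and gamma subunits, rose by 0.56 and 0.25, and EIF5, the GTPase-activating factor of eIF2, by 0.71. All 3 subunits of eIF2 were called. Among subunits of the exchange factor eIF2B, EIF2B3 rose by 0.18, a call that ended with upper quartile scaling (0.088, edgeR adjusted p = 0.207), with total counts (0.11, adjusted p = 0.142), without DMSO replicate 2 (0.16, adjusted p = 0.0681) and without CR31B replicate 4 (0.18, adjusted p = 0.0544). EIF2B1, EIF2B2, EIF2B4 and EIF2B5 had -0.01, -0.04, -0.13 and -0.07, and CDC123, an assembly factor of eIF2, had 0.11, none of them called. With the replicate block CDC123 (0.11, edgeR adjusted p = 0.0396) and EIF2B4 (-0.14, adjusted p = 0.0463) passed.

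The catalytic subunits of protein phosphatase 1, to which PPP1R15A and PPP1R15B bind, were called higher in 2 of 3 cases (66.7%). Over all tested genes 23.8% were called higher. PPP1CB had 165 ± 1.72 CPM with DMSO and 270 ± 6.43 CPM with CR31B (SD, n = 3 each), a log2 fold change of 0.72 ± 0.046, edgeR adjusted p = 2.39e-06. PPP1CC rose by 0.43 ± 0.049. PPP1CA had -0.07 ± 0.045 and was not called; it was called lower with upper quartile scaling (-0.17, edgeR adjusted p = 0.00669) and total counts (-0.15, adjusted p = 0.0124), and stood at 0.029 with GC and length offsets. In pair 1 PPP1CB and PPP1CC differed by -0.79 and -0.40.

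Of 13 activators and partners of the kinases, 3 (23.1%) were called higher, 4 (30.8%) lower and 6 not, beside 23.8% and 17.6% over all tested genes. The largest difference was in HSPA5 (BiP), the chaperone that holds EIF2AK3 inactive, which fell from 559 ± 60.5 to 293 ± 33.1 CPM (SD, n = 3 each), a log2 fold change of -0.93 ± 0.095, with 1.01 in pair 1. ADAR, which edits double-stranded RNA, rose by 0.31, NCK1, an adaptor, by 0.31 and MAP3K20, a ribosome-associated kinase, by 0.16. DELE1, which links mitochondrial stress to EIF2AK1, had -0.24 and was called lower, as was EIF2AK1 itself, while OMA1, the protease upstream of DELE1, had -0.06 and was not called. RPLP0 and RPLP2, of the ribosomal stalk that activates EIF2AK4, fell by 0.25 and 0.23. RPLP1, of the same stalk, had -0.10 and was not called. These stalk genes have many processed copies in the genome, so their counts are uncertain. With GC and length offsets RPLP0 had an edgeR adjusted p = 0.0533. PRKRA and TARBP2, an activator and an inhibitor of EIF2AK2, had -0.0054 and 0.06.

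Downstream, ATF4 and its known targets were largely higher in replicates 2 to 4. Of 32 genes 30 were tested, 26 (86.7%) were called higher, 0 lower and 4 not, with a median of 0.72. Over all tested genes 23.8% were called higher and 17.6% lower. The list was chosen with earlier results of these data known, and some of its called genes had group means under 1 CPM. CHAC1, a glutathione-degrading enzyme, had the largest rise of the list at 2.995 ± 0.11 on the log2 scale. Next among the named genes were SESN2 (1.76), PSPH (1.43) and CEBPB (1.296). ATF4 itself rose by 0.39 and DDIT3 (CHOP), which is known to act on PPP1R15A transcription, by 0.37. PPP1R15A, itself counted among the textbook targets of this pathway and left out of the list because it is a member, had -0.47 in the same fit. ATF4 and DDIT3 here, and DELE1, OMA1, MAP3K20, RPLP1, RPLP2, PRKRA and TARBP2 above, were chosen for naming after their values were seen. In pair 1 the median of the list was -0.72 and PPP1R15A differed by 0.54.

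The list for the IRE1 and ATF6 branches of the unfolded protein response holds 14 genes. Of these, 3 (21.4%) were called higher, 5 (35.7%) lower and 6 not, beside 23.8% and 17.6% over all tested genes. The median of the list was -0.09. PDIA4 and MANF, a disulfide isomerase and a secreted factor of the endoplasmic reticulum, fell by 0.75 and 0.72, MBTPS1, the protease that processes ATF6, fell by 0.44, and HERPUD1, of the degradation pathway, rose by 0.39. With upper quartile scaling 8 genes of the list were called lower. DNAJC3, known as a target of these branches, had -0.17 as given above. Of 12 interferon-stimulated genes, the class to which EIF2AK2 belongs, 5 were abundant enough to test. RIGI, a sensor of viral RNA, rose by 0.68 ± 0.13 (3.40 ± 0.21 CPM with DMSO and 5.45 ± 0.746 CPM with CR31B, SD, n = 3 each). IFIT1 had 1.02 ± 0.50 at under 1 CPM and IFI6 -0.30 ± 0.15, both not called. IFIT1 passed with the replicate block (1.01, edgeR adjusted p = 0.0483) and without CR31B replicate 2 (1.37, adjusted p = 0.0354).

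**Figure D5:**
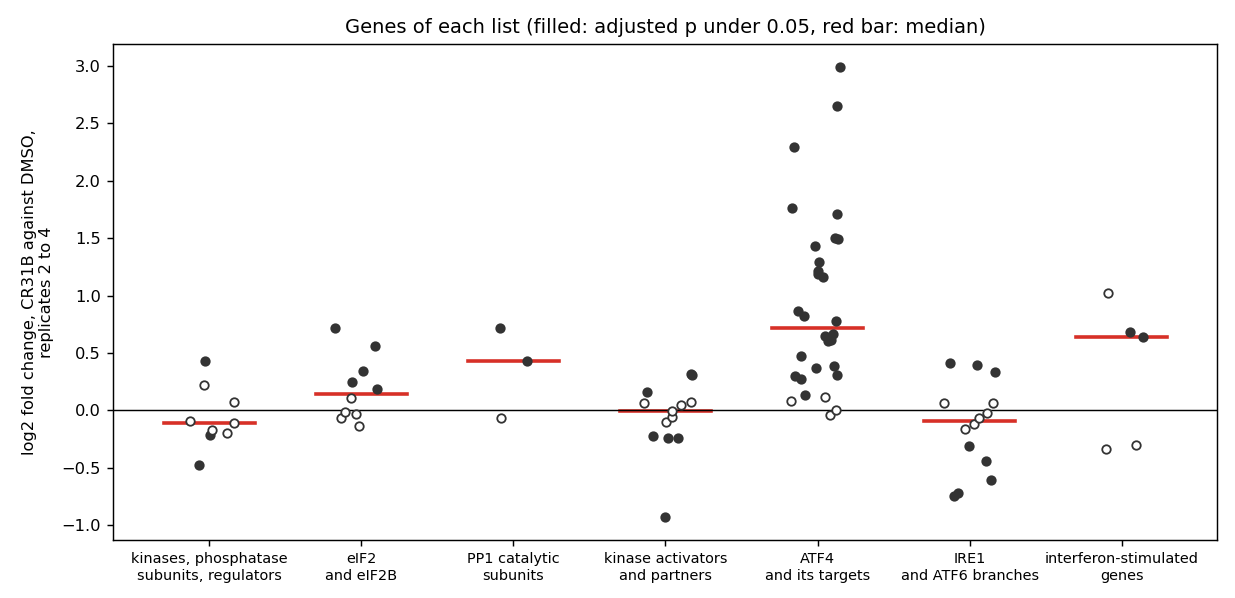
Log2 fold change of CR31B against DMSO in replicates 2 to 4 for each tested gene of the 9 members and of the 6 pathway lists; filled points have an adjusted p under 0.05 and red bars are medians. The ATF4 list has its median at 0.72 with 26 of 30 tested genes called higher. The 9 members have a median of -0.11 with 1 called higher and 2 lower. Over all tested genes 23.8% were called higher and 17.6% lower.

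The genes whose log2 CPM over the 8 libraries was most like that of the called members, among 10691 genes with a symbol and a mean of at least 5 CPM, were TSKU for EIF2AK1 (Pearson r = 0.996), TIMM17B for PPP1R15A (r = 0.992) and KAT6A for PPP1R15B (r = 0.999). The 8 points share the split of the libraries described above, and 1215, 887 and 2513 genes had r over 0.9 with EIF2AK1, PPP1R15A and PPP1R15B, so the likeness is a description of these libraries.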

How the data were processed

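RNA sequencing of IMR32 cells was analysed in 8 libraries. The file the authors deposited holds raw counts, 1 row for each Ensembl gene and 1 column for each library, with no normalisation. The submitters' processing notes name FastQC 0.11.7, STAR 2.7.2b, edgeR 3.36.0, limma 3.50.3 and GRCh38; the counting tool and the annotation are not given in the sources used here, and the strand setting only in so far as the table's name carries the word reverse. Per the labels' protocols, 250 ng of RNA, a TruSeq small RNA kit, 15 PCR cycles and 75 read cycles were used. Whether that kit made these libraries, whose deposited counts are per gene, could not be checked here. Column names gave each library's sample; that of CR31B replicate 4 lacks its first letter. Coordinates are from GENCODE release 29 (58515 of 58787 identifiers found), symbols from a table of gene names, and promoters from RefSeq.

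The test was edgeR 4.0.16 under R 4.3.3 (quasi-likelihood, filterByExpr, TMM, Benjamini-Hochberg over all tested genes, threshold 0.05) in 8 libraries with layout as a covariate and in the single-end libraries alone; limma 3.58.1 and DESeq2 1.42.0 were alternatives. CPM are counts scaled by TMM. Members and lists were chosen with earlier results of these data known. The text names all members, all genes of the eIF2 and phosphatase 1 lists, up to 4 of each other list with the smallest adjusted p in replicates 2 to 4, and the gene most like each called member. One gene that this rule names is not reported here. In the single-end libraries deviations from group means correlated between libraries of the same number (0.208, 0.388 and 0.157). Over all 8 libraries the values for replicates 1, 2, 3 and 4 were -0.527, -0.078, 0.159 and -0.108. On the single-end values, the numbers are taken to pair those libraries only. The test as reported has no replicate term, and the block is given where it changes a call. No 2 libraries agreed within sampling noise (smallest chi-square per gene 7.16, where 1 is expected). Counts include PCR duplicates. The edgeR script was first tested on simulated data. Alternatives were scaling, filters, the replicate block, GC and length offsets, and leaving out libraries; each level per length with the longest transcript was added after seeing the data.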

Additional observations from a re-analysis of the deposited data

Results flagged for a closer look

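In PPP1R15B one library lay far from the other 3 of its labelled group in both groups. Dividing that library's distance from its nearest neighbour by the whole spread gave 0.877 for CR31B and 0.837 for DMSO, above Dixon's 95% critical value for groups of 4, and the distant library was replicate 1 each time. Over the 9 genes and 2 groups, 18 such ratios were computed and 2 passed, where chance gives about 0.9 (1 in 20).

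The difference between CR31B and DMSO was not the same in the paired-end pair and the single-end pairs for 4 genes by the interaction test (edgeR quasi-likelihood, adjusted p under 0.05). Paired-end minus single-end, it was 0.44 for EIF2AK1, 1.01 for PPP1R15A, -0.843 for PPP1R15B and 0.432 for DNAJC3. Over all tested genes the same test passed in 42.5% of 16518.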

How the results depend on the processing

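In replicates 2 to 4, PPP1R15A (-0.57 to -0.41 on the log2 scale), PPP1R15B (0.29 to 0.45) and EIF2AK1 (-0.31 to -0.19) kept direction and call in all 16 alternatives. The number of the 9 genes called rose from 3 to 6 with the replicate block, 6 with upper quartile scaling, 5 with total counts, 6 without a filter, 5 with at least 1 CPM in every library, 7 with GC and length offsets and 8 with these offsets and the replicate block; over all tested genes the share called went from 41.3% to 51.1%, 45%, 44.2%, 24.8%, 53.7%, 38.8% and 50.7% in the same order. Genes called lower rose from 2933 to 4509 with upper quartile scaling and 4447 with offsets and the block. Of all calls 57.5% were higher after TMM scaling; upper quartile scaling gave 40%, total counts 43.1% and offsets 49.5%. Upper quartile scaling moved the median of all genes to -0.102, and to 0.23 in the interaction. EIF2AK2 turned negative with upper quartile scaling (-0.0245), total counts (-0.00723) and offsets (-0.206, and -0.205 with the block), PPP1CA turned positive with offsets (0.029, and 0.029 with the block), and EIF2B2 without DMSO replicate 4 or CR31B replicate 3 (-0.0948 to 0.0208 over libraries left out). Apart from values given in the report, the block changed no call of a member or of a list gene named by the rule; other named genes were not run under it.

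In 8 libraries, leaving out libraries or pairs gave 0 to 6920 genes called, 0 to 3974 higher, 0 to 2954 lower and 0 to 4 of the 9; the replicate block left 0 calls, with 111 genes at an unadjusted p under 0.05, and DESeq2 gave 0. Calls appeared only without a library of replicate 1. Where the other library of replicate 1 stayed in, the layout covariate absorbed it. Those fits in effect repeat the fit of replicates 2 to 4. There EIF2AK2 was -0.012 with upper quartile scaling, -0.00558 with total counts, -0.11 with offsets (-0.108 with the block) and -0.00928 without replicate 4 (up to 0.0721 over those left out). EIF2AK3 turned positive without DMSO replicate 2, CR31B replicate 3 or replicate 2 (-0.0976 to 0.0264 over those left out), EIF2AK4 without DMSO replicate 3, CR31B replicate 2 or replicate 2 (-0.112 to 0.00875), and DNAJC3 without CR31B replicate 3 (-0.171 to 0.00724). In the interaction test 7 of the 9 passed with upper quartile scaling and 6 with total counts, where 47% and 45.7% of all genes passed, and EIF2AK2 was 0.0412 and 0.00576 there. The causes of these changes were not tested. Member counts ran from 817 (PPP1R15A) to 28996 (PPP1R15B) per library.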
